A study of Mus musculus with 13 samples.

Results

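The eosinophil-associated ribonuclease (Ear) family was examined in mouse bone marrow-derived macrophages that lacked or retained the histone deacetylase HDAC3 and were treated with interleukin-4 (IL-4) or vehicle. The 9 listed names (Ear1, Ear2, Ear3, Ear4, Ear5, Ear10, Ear11, Ear12 and Ear14) were selected on their IL-4 against vehicle differences in these arrays, so those differences are given here as a description and without a test. Of the 9 names, 6 had a probe, 1 each, among 27779 gene names on the array. No probe carried the names Ear2, Ear12 or Ear14. RefSeq now lists Ear11 as Rnase2a and Ear5 as Rnase2b. Ear6 and Ear7, also on the array, are not among the listed names and are described beside them.

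RNA was hybridised to 13 one-colour Agilent arrays. The groups were HDAC3 knockout (KO) cells with IL-4 (3 arrays, numbered 13 to 15), control cells with IL-4 (3 arrays, 9, 10 and 12), KO cells with vehicle (3 arrays, 5 to 7) and control cells with vehicle (4 arrays, 1 to 4). KO cells came from mice with floxed Hdac3 (loxP sites around exons 4 to 7) and Cre recombinase under the lysozyme M promoter, and control cells from floxed mice without Cre, so that HDAC3 loss and Cre cannot be told apart. All mice were male C57BL/6J animals 12 to 16 weeks old. Marrow was cultured for 6 days in 30% L929-conditioned medium, and cells then received 10 ng/mL IL-4 or 0.1% bovine serum albumin for 24 hours. Separate mice or cultures are not recorded in the labels for the arrays of each group. The p-values hence reflect only how far these arrays scatter, which may be technical, and the small number of arrays limits their precision.

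Ear proteins are small secreted ribonucleases of the RNase A superfamily, first described in eosinophil granules as the mouse counterparts of human eosinophil-derived neurotoxin and eosinophil cationic protein. The mouse genes arose by repeated duplication and include near-identical copies. Ear11 is known in mice as an IL-4 and IL-13 responsive gene of alternatively activated macrophages, and its product attracts macrophages. IL-4 acts through its receptor, Janus kinases and the transcription factor STAT6.

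Because the copies resemble each other, the probe sequences are shown and compared with one another. No probe was aligned to the Ear transcripts, so which copies each probe can read was not tested. Every probe has 60 bases and lies on chromosome 14 of the mm9 build, per the file headers. Capitals in the Ear3 and Ear10 probes mark a stretch of 31 bases that both contain, and capitals in the Ear7 probe mark its differences from the Ear3 probe.
Ear11 probe: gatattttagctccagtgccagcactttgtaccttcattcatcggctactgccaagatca
Ear1 probe: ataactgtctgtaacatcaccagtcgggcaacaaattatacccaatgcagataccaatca
Ear10 probe: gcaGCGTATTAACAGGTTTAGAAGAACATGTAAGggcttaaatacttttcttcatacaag
Ear3 probe: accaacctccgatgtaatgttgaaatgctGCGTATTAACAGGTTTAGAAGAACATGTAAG
Ear5 probe: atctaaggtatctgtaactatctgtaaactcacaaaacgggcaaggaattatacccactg
Ear4 probe: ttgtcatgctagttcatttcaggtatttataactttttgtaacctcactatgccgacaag
Ear6 probe: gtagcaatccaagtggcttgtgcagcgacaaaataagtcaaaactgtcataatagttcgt
Ear7 probe: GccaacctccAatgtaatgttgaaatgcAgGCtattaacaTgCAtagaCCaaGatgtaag

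The Ear11 probe was placed by the files at chr14:51875064-51875123 on the minus strand and carried 1 RefSeq accession, that of Rnase2a. The Ear1 probe lay at chr14:44396709-44396768, also on the minus strand, with 1 accession, that of Ear1. The Ear10 probe at chr14:44500822-44500881 and the Ear3 probe at chr14:44500848-44500906 overlapped on the minus strand. Both carried the same 4 accessions, of which the reference table named Ear10 and Ear2, so that signal there may come from Ear10, Ear2, Ear3 or another copy. Over 34 aligned bases the Ear3 and Ear10 probes differed at 1 base. The Ear5 probe at chr14:51782432-51782491 (plus strand) carried the Rnase2b accession alone. The Ear4 probe at chr14:51823642-51823701 (plus strand) carried 2 accessions, and the table named Ear14 for 1 of them. Ear6 (chr14:52473908-52473967) and Ear7 (chr14:52473799-52473858) lay on the plus strand, and the Ear7 probe also carried the Ear6 accession. The Ear7 probe matched the Ear3 probe at 49 of 60 bases. Of the 28 pairs among the 8 probes, Ear3 with Ear10 was the 1 pair that shared a run of 20 or more bases. Exon or untranslated region was not assigned, since no genome of this build was used here. Levels are given as log2 intensity minus the array's 75th percentile, and they serve to compare arrays for the same probe, not probes with each other.

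IL-4 brought large increases at 4 of the 6 family probes in both genotypes: Ear11, Ear1, Ear10 and Ear3. Ear5 differed by far less, and Ear4 stayed at background on every array. Of the 6 probes, 5 passed the filter, which asked for a signal well above background throughout 1 or more groups, as did 29055 probes in all. In control cells 4 of these 5 were past an adjusted p of 0.05 in the fit over all probes, where 5.28% of all probes were. In KO cells those 4 probes were past it, where 2.01% of all probes were. These contrasts chose the family, so nothing is read from these counts. The median IL-4 difference of the 5 probes was 5.81 in KO cells and 4.75 in control cells, or 5.08 in KO cells and 4.60 in control cells with Ear3 set at its bound. Over all 29055 probes that median was -0.05 in KO cells and 0.00 in control cells.

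**Figure D1:**
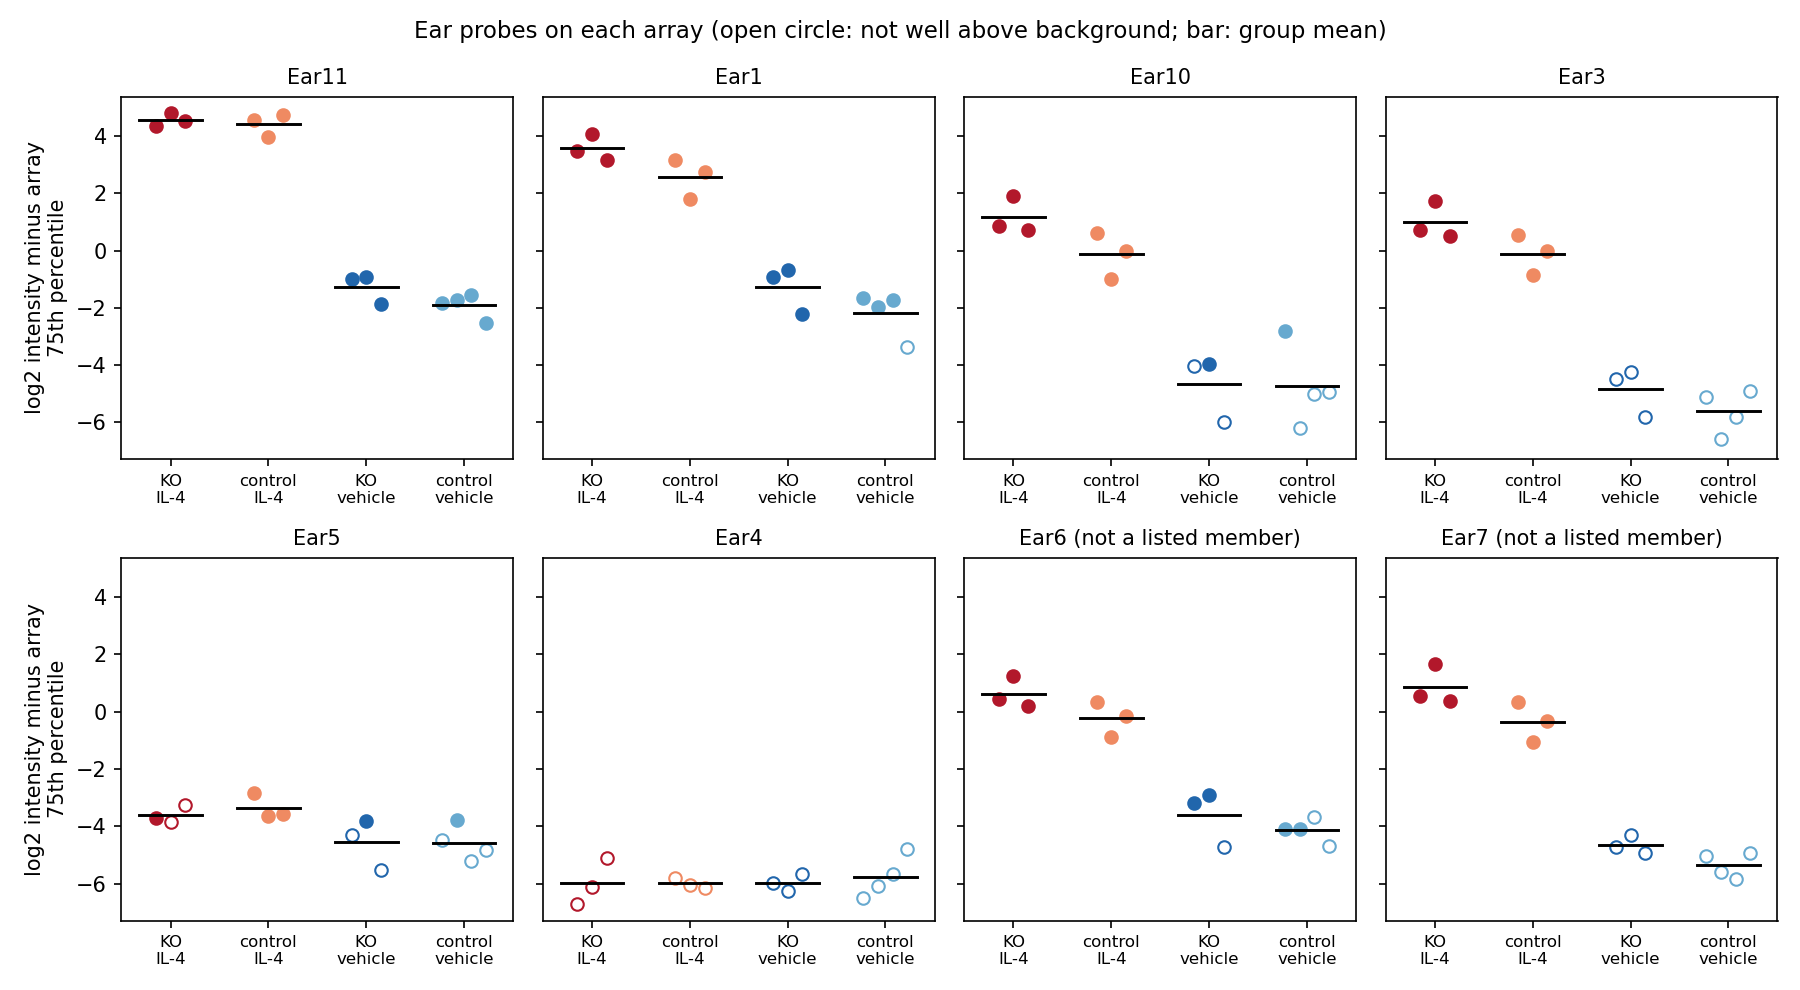
Level of each Ear probe (log2 intensity minus the array's 75th percentile, vertical axis) on every array, by group on the horizontal axis. Filled circles are well above background, open circles are not, and bars are group means. The IL-4 arrays of Ear11, Ear1, Ear10 and Ear3 sit above all vehicle arrays, and Ear4 is open throughout.

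Ear11 (Rnase2a), the chemoattractant member, was at 4.33, 4.80 and 4.52 on KO IL-4 arrays, and at 4.57, 3.96 and 4.72 on control IL-4 arrays. On vehicle arrays it was at -0.98, -0.94 and -1.86 in KO cells, and at -1.83, -1.72, -1.55 and -2.52 in control cells. The IL-4 arrays of both genotypes lay far above every vehicle array, and each of the 13 arrays read it well above background. The IL-4 difference was 5.81 ± 0.31 in KO cells and 6.32 ± 0.29 in control cells (log2, SE), a 56.1-fold difference in KO cells and a 79.9-fold difference in control cells.

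Ear1, another of the secreted ribonucleases, was at 3.47, 4.06 and 3.16 on KO IL-4 arrays, and at 3.16, 1.81 and 2.74 on control IL-4 arrays. Vehicle levels were -0.94, -0.68 and -2.21 in KO cells, and -1.66, -1.98, -1.71 and -3.38 in control cells. Again no IL-4 array reached down to a vehicle array. Its lowest reading, control vehicle array 4, was the 1 array on which it was not well above background. IL-4 differences were 4.84 ± 0.53 in KO cells and 4.75 ± 0.49 in control cells (log2, SE), or 28.7-fold in KO cells and 27.0-fold in control cells.

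The Ear10 probe gave 0.84, 1.90 and 0.73 on KO IL-4 arrays, and 0.60, -0.98 and -0.02 on control IL-4 arrays. It gave -4.03, -3.97 and -5.97 on KO vehicle arrays, and -2.81, -6.19, -5.00 and -4.94 on control vehicle arrays. The IL-4 arrays were again apart from the vehicle arrays, but the vehicle levels were loose: the probe was well above background on 1 of 3 KO vehicle arrays and 1 of 4 control vehicle arrays. IL-4 differences were 5.82 ± 0.79 in KO cells and 4.60 ± 0.74 in control cells (log2, SE), and they rest mostly on vehicle readings near background.

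The overlapping Ear3 probe gave 0.70, 1.73 and 0.50 on KO IL-4 arrays, and 0.53, -0.84 and -0.02 on control IL-4 arrays. It was not well above background on any vehicle array, with measured means of -4.84 in KO vehicle and -5.60 in control vehicle. The IL-4 difference is therefore a bound, at least 33.8-fold in KO cells and at least 15.4-fold in control cells. A bound sets the mean of the bright group against, per dim array, the higher of the probe's own value and the lowest signal well above background. On control vehicle array 1 the Ear10 probe stood at -2.81, above the other 3 control vehicle arrays, whereas the Ear3 probe stood at -5.12 there, inside its range of -6.57 to -4.90.

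Ear5 (Rnase2b) differed from the others in size. It was at -3.72, -3.83 and -3.25 on KO IL-4 arrays, and at -2.83, -3.64 and -3.58 on control IL-4 arrays. Vehicle levels were -4.31, -3.83 and -5.52 in KO cells, and -4.47, -3.78, -5.21 and -4.81 in control cells. IL-4 and vehicle arrays overlapped in KO cells and did not in control cells. The IL-4 difference was 0.95 ± 0.44 in KO cells and 1.22 ± 0.41 in control cells (log2, SE). The Ear5 signal was dim. It exceeded background clearly on 1 KO IL-4 array, all 3 control IL-4 arrays, 1 KO vehicle array and 1 control vehicle array.

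Ear4 gave intensities between 5.69 and 19.4 on all 13 arrays and was well above background on none. No difference is given for it. Its accessions include that of Ear14, so this probe detected neither transcript above background.

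Outside the listed names, the Ear7 probe went with Ear3. It gave 0.57, 1.66 and 0.38 on KO IL-4 arrays, and 0.35, -1.06 and -0.32 on control IL-4 arrays, and was at background on every vehicle array. Its IL-4 difference was at least 31.9-fold in KO cells and at least 13.1-fold in control cells. The Ear6 probe differed by 4.24 ± 0.47 in KO cells and 3.91 ± 0.44 in control cells (log2, SE).

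IL-4 arrays of a genotype lay wholly above its vehicle arrays for 4 of the 5 probes in KO cells (all but Ear5) and for all 5 in control cells. Over all probes 8.66% did so in KO cells and 8.24% in control cells, and since these contrasts chose the family, nothing is read from this either. Ranked by the size of the fitted difference among 29055 probes, Ear11 was 6th and Ear1 9th in KO cells, and Ear11 was 3rd and Ear1 8th in control cells. The other probes are given no rank, since most or all of their vehicle readings were at background.

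HDAC3 loss was examined next, in contrasts that did not choose the family. The Hdac3 probe was at -3.16, -3.35 and -4.02 on KO IL-4 arrays, against -1.89, -2.28 and -1.80 on control IL-4 arrays. It was at -3.67, -3.12 and -3.46 on KO vehicle arrays, against -1.70, -2.14, -2.01 and -2.18 on control vehicle arrays. Every KO array lay below every control array. Hdac3 fell by 1.52 under IL-4 (limma adjusted p = 0.0044) and by 1.41 in vehicle (adjusted p = 0.00317), on the log2 scale. Whether the probe lies within the floxed exons was not examined.

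Under IL-4, no family probe passed the test between genotypes: 0 of 5 by limma at an adjusted p under 0.05, where 3.21% of all probes passed, and 0 of 5 at an unadjusted p under 0.05, where 14.4% did. The lowest adjusted p was 0.402, for Ear3. Ear10 was 1.29 log2 higher in KO cells (95% interval -0.44 to 3.02, limma adjusted p = 0.518), and its KO and control IL-4 arrays did not overlap. It was the 1 probe of the 5 without overlap, against 17.4% of all probes. Ear3 was 1.09 higher (-0.10 to 2.28, adjusted p = 0.402) and Ear1 0.99 higher (-0.16 to 2.15, adjusted p = 0.443). Ear11 differed by 0.13 (-0.54 to 0.80, adjusted p = 0.896), or by -0.10 without control IL-4 array 10, and Ear5 by -0.25 (-1.21 to 0.71, adjusted p = 0.854). The upper limits were thus 3.02 at Ear10 and 2.28 at Ear3, against 0.80 at Ear11. Ear5 entered the fit through the control IL-4 group alone, with 1 of 3 KO IL-4 arrays well above background, so its result here says little. The median difference of the 5 was 0.99, against -0.02 over all probes. Of the unlisted probes, Ear7 was 1.21 higher in KO IL-4 cells (0.32 to 2.10, limma unadjusted p = 0.0119, adjusted p = 0.173), without overlap. Ear6 was 0.86 higher (-0.18 to 1.90, adjusted p = 0.470).

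In vehicle, Ear11 and Ear1 were the members with a signal on most arrays, and neither passed the test between genotypes. The fit held 5 members and called 0 of 5 by limma at an adjusted p under 0.05, where 4.16% of all probes passed, and 1 of 5 had an unadjusted p under 0.05, where 13.2% did. Ear3, Ear5 and Ear10 were in it through their IL-4 groups, with 0, 2 and 2 of 7 vehicle arrays well above background, so that their vehicle results say little. Ear11 was 0.64 log2 higher in KO vehicle cells (95% interval 0.02 to 1.27, limma unadjusted p = 0.0455, adjusted p = 0.361). Ear1 was 0.90 higher (-0.18 to 1.98, adjusted p = 0.520). Without control vehicle array 4, on which Ear1 was not well above background, that difference was 0.51, and without KO vehicle array 7 it was 1.37. KO and control vehicle arrays overlapped at both Ear11 and Ear1, and 16.4% of all probes did not overlap. The estimate was 0.08 at Ear10 (-1.54 to 1.70, adjusted p = 0.998) and 0.01 at Ear5 (-0.89 to 0.91, adjusted p = 0.998). No difference is given for Ear3.

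The IL-4 difference was then compared between genotypes by the interaction term. None of the 5 probes in the fit passed (limma adjusted p = 0.9997 for each, lowest unadjusted p = 0.247), and 0.00344% of all probes did, which is 1 probe. Without adjustment 0 of 5 had a p under 0.05, against 3.76% of all probes. As in vehicle, Ear3, Ear5 and Ear10 enter with vehicle levels mostly at background. For Ear11 the estimate was -0.51, a smaller IL-4 difference in KO cells (95% interval -1.43 to 0.41), and it was -0.31 without control vehicle array 4 and -0.81 without KO vehicle array 7. For Ear10 it was 1.22 (-1.15 to 3.58), and it was 0.56 without KO vehicle array 7, 0.57 without control vehicle array 1 and 0.79 without control IL-4 array 10. The estimates were 0.09 for Ear1 (-1.49 to 1.67) and -0.27 for Ear5 (-1.58 to 1.05). The intervals of Ear1, Ear5 and Ear10 each span more than a doubling in either direction.

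**Figure D2:**
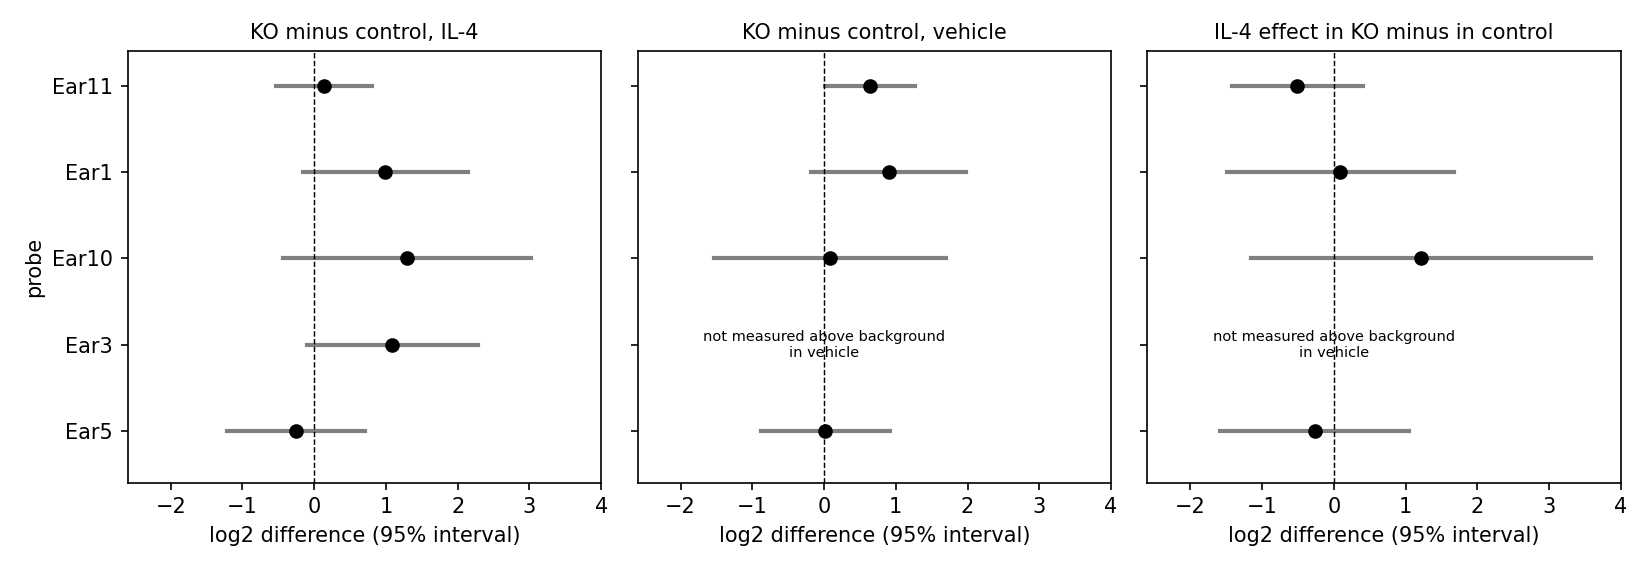
Log2 differences (points) with 95% intervals (lines) for KO minus control cells under IL-4, KO minus control cells in vehicle, and the IL-4 difference in KO minus that in control cells. All intervals include 0 but that of Ear11 in vehicle, which runs from 0.02 to 1.27.

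The 6 IL-4 arrays carried a shared order. KO IL-4 array 14 was the highest and control IL-4 array 10 the lowest for Ear11, Ear1, Ear10, Ear3, Ear6 and Ear7 alike. Both arrays lay on slide 2. For Ear5 array 14 was the lowest and control IL-4 array 9 the highest. The order was not particular to the family. Arrays 14 and 10 were also the highest and lowest IL-4 arrays for Retnla, Chil3, Siglecf, Il4ra, Rnh1 and Stat6. Stat6, for example, was at 4.39 on array 14 and 3.69 on array 10. Arg1, Hdac3, Rnase4, Rnase6 and Ang did not share both extremes, and Ang was at -0.87 on array 14 and 0.17 on array 10. Over these 6 arrays Pearson's r was 0.996 between Ear3 and Ear10, whose probes overlap, 0.991 between Ear1 and Ear10 and 0.999 between Ear3 and Ear7. It was 0.737 between Ear1 and Ear11 and -0.09 between Ear1 and Ear5. The values share their arrays, their scaling and, for overlapping probes, their targets, and are given as a description.

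The slides bear directly on the genotype difference under IL-4, because KO and control IL-4 arrays met on slides 1 and 2 alone. Ear10 was 0.24 higher in the KO array on slide 1 and 2.88 higher on slide 2. For Ear3 the values were 0.18 on slide 1 and 2.57 on slide 2. For Ear1 they were 0.30 on slide 1 and 2.25 on slide 2, and for Ear7 0.22 and 2.73. For Ear11 they were -0.24 on slide 1 and 0.84 on slide 2. The genotype difference under IL-4 was larger on slide 2 than on slide 1 for each of these 5 probes. With slide as a fixed block Ear10 was 1.54 higher (limma adjusted p = 0.401) and Ear3 1.48 higher (adjusted p = 0.238). Without control IL-4 array 10 the difference was 0.87 at Ear10, 0.73 at Ear3 and 0.61 at Ear1, and without KO IL-4 array 14 it was 0.92 at Ear10, 0.71 at Ear3 and 0.74 at Ear1. In vehicle, the KO array was above the control array at Ear11 on slides 1 and 2 (0.84 and 0.78) and below it on slide 3 (-0.31). At Ear1 the same 3 slides gave 0.72, 1.30 and -0.50. Every group occupied a slide position of its own, and group and position cannot be told apart.

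**Figure D3:**
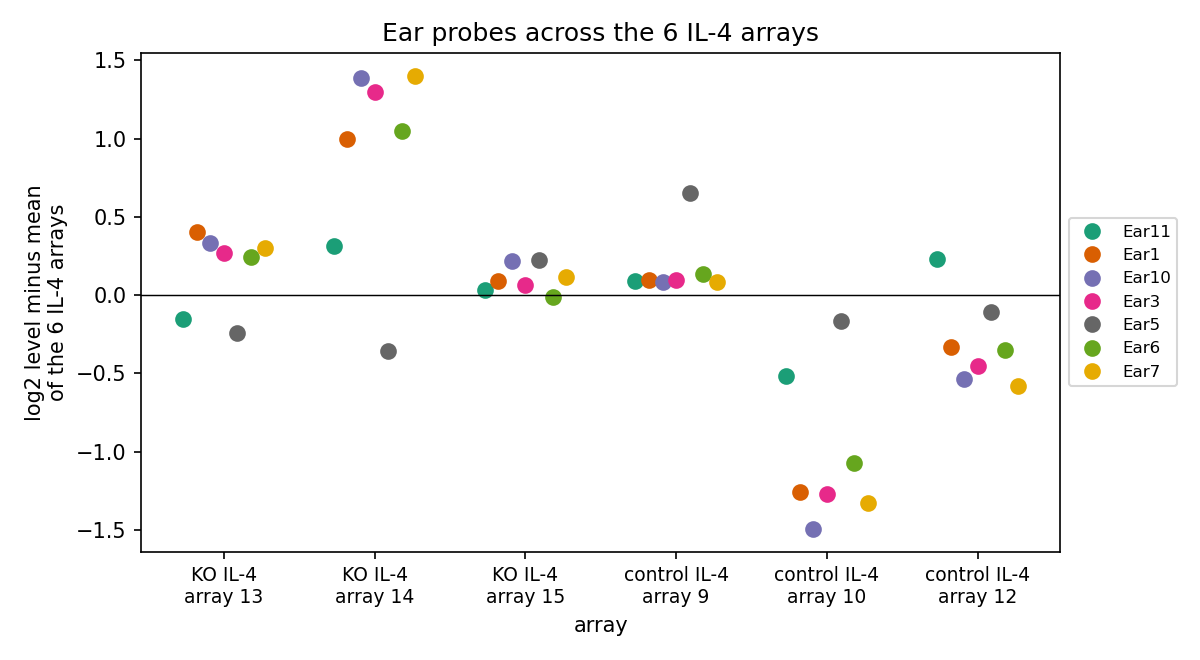
Level of each Ear probe on the 6 IL-4 arrays, minus its mean over those arrays (log2, vertical axis). KO arrays are at the left and control arrays at the right. All probes but Ear5 are highest on KO array 14 and lowest on control array 10.

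The genes with a profile most like the family were found by Pearson's r, over all 13 arrays, with the mean of the 5 probes after each was centred. Apart from Ear6 (r = 0.991) and Ear7 (r = 0.987), the closest of 29050 probes was Chil3 (r = 0.993), which encodes the chitinase-like protein Ym1, another IL-4 induced product of mouse macrophages. Ak1 (adenylate kinase, r = 0.987), Atp6v0a1 (a vacuolar ATPase subunit, r = 0.979), Zcchc2 (r = 0.979), Inpp5a (an inositol phosphatase, r = 0.979) and Rrp8 (r = 0.979) followed. In all 277 probes had an r above 0.9. These points share arrays and scaling, and they span both treatments. Within the 6 IL-4 arrays alone r was 0.908 for Chil3 and 0.375 for Inpp5a. The lowest values were those of AK042676 (r = -0.979) and Icosl (the ICOS ligand, r = -0.970). Chil3 was at 7.05, 7.30 and 6.86 on KO IL-4 arrays, and at 6.19, 5.10 and 5.84 on control IL-4 arrays, so that KO array 14 was again the highest and control array 10 the lowest. Its genotype difference under IL-4 was 1.36 (limma adjusted p = 0.170).

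Other members of the RNase A superfamily were read next. Of 16 relatives listed, 11 had a probe outside the family and 10 passed the filter. The 16 include Rnase2b, whose probe is that of Ear5 and is counted with the family instead. By the brightest probe of each gene, 3 rose with IL-4 in control cells (Ear6, Ear7 and Ang), where 5.28% of all probes passed. In KO cells 2 rose (Ear6 and Ear7), where 2.01% passed, and none fell in either genotype. The median IL-4 difference of the 10 was 0.06 in KO cells and 0.38 in control cells. Ang, angiogenin, rose by 0.55 with IL-4 in control cells (limma adjusted p = 0.0414), and differed by 0.20 in KO cells (adjusted p = 0.651). Rnase4, a secreted ribonuclease next to Ang, fell with HDAC3 loss. It was at -0.04, 0.10 and 0.95 on KO IL-4 arrays, against 1.35, 1.54 and 1.30 on control IL-4 arrays. In vehicle it was at -0.73, -0.51 and 0.08 in KO cells, against 0.72, 0.69, 0.69 and 0.90 in control cells. The groups did not overlap in either condition. Rnase4 fell by 1.06 under IL-4 (limma adjusted p = 0.044) and by 1.13 in vehicle (adjusted p = 0.0181). Its second probe fell by 1.37 under IL-4 (adjusted p = 0.0178) and was at -0.94 in vehicle (adjusted p = 0.0688). With IL-4 the second probe rose by 1.01 in control cells (limma adjusted p = 0.0411) and differed by 0.59 in KO cells (adjusted p = 0.423). The first Rnase4 probe differed by 0.65 in control cells (adjusted p = 0.185) and 0.72 in KO cells (adjusted p = 0.230). Rnase6 and Ang6 passed none of the tests. Rnh1, the cytosolic inhibitor that binds RNase A type enzymes, did not pass in any comparison, with differences of 0.35 under IL-4 (adjusted p = 0.229) and 0.37 in vehicle (adjusted p = 0.152) for KO minus control.

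The Ear probes lie over a span of 7.48 Mb of chromosome 14, in which unrelated genes intervene. Within that span and 500 kb on either side lay 175 probes that are no members, of which 134 passed the filter. IL-4 raised 3 and lowered 0 of them in KO cells (2.24%, against 2.01% of all probes). It raised 8 and lowered 1 in control cells (6.72%, against 5.28% of all probes). The risers in control cells include Ang and a Rnase4 probe, relatives of the family. The largest IL-4 difference among them was that of Ddhd1, a phospholipase gene, at 1.49 in KO cells and 2.10 in control cells (limma adjusted p = 0.0003 in KO cells and 6.11e-06 in control cells). The other Ddhd1 probes disagreed, with 1.26 in KO cells and 1.42 in control cells for one, and 0.14 in KO cells and -0.21 in control cells for the other, which passed in neither. The neighbours' medians were -0.09 in KO cells and 0.00 in control cells. In the plot of IL-4 differences by position, the Ear probes drawn, other than Ear5, lie above every neighbour at both ends of the region. These contrasts chose the listed names, so nothing is read from this.

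**Figure D4:**
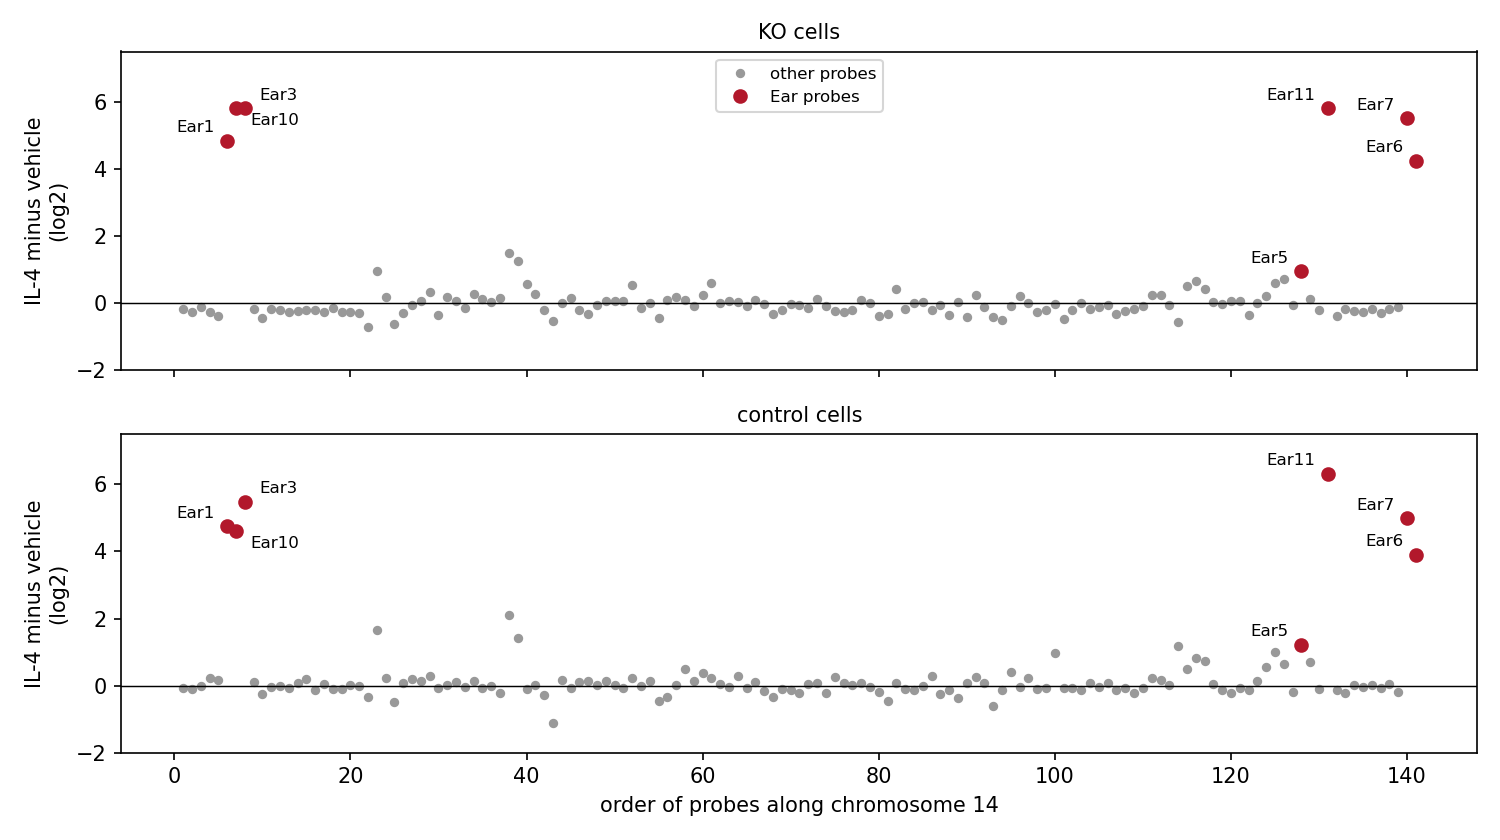
IL-4 minus vehicle (log2, vertical axis) of Ear probes (red) and neighbouring probes (grey) in KO cells (top) and control cells (bottom), in their order along chromosome 14. Ear3 and Ear7 are drawn at the fitted value, although their vehicle groups are at background. Ear4, at background on every array, is not drawn. No neighbour exceeds 2.10, and the Ear probes other than Ear5 lie at 3.91 or above.

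Promoter sequence was available from RefSeq (GRCm38.p6) for 7 Ear genes, at 250 bases before to 50 after the annotated start. Those of Ear11 (Rnase2a), Ear1 and Ear5 (Rnase2b) are shown because their probes had the largest, an intermediate and the smallest IL-4 difference in control cells. Capitals mark matches to the C/EBP type motif TTGCNNAA.
Rnase2a promoter, chr14:51256063-51256362, minus strand: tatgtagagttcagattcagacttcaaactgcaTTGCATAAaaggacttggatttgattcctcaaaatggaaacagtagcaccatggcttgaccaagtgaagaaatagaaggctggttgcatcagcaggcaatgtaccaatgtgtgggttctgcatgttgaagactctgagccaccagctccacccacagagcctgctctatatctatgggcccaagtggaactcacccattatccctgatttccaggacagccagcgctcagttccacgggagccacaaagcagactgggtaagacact
Ear1 promoter, chr14:43819590-43819889, minus strand: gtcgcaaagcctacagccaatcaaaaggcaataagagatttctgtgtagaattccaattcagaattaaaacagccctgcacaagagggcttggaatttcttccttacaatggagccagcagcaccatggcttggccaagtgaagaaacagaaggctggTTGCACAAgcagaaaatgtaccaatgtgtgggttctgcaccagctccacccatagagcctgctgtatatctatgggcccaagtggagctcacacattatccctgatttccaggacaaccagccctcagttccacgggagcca
Rnase2b promoter, chr14:51162010-51162309, plus strand: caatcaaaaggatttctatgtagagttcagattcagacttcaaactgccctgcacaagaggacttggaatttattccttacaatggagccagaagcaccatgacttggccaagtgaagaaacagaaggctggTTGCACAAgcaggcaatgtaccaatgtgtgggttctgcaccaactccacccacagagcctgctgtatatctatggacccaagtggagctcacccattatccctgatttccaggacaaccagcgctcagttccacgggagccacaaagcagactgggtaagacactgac

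The promoters were close copies. Identity over aligned columns ran from 81.1% (Ear2 with Rnase2a) to 98.7% (Ear1 with Ear2) among the 15 pairs that leave out Ear14, which aligned with the others over 62 to 90 columns only. The Rnase2b promoter was 92.3% identical to that of Ear1 and 87.0% identical to that of Rnase2a, although the Ear5 probe differed least with IL-4. A run of 21 bases stood in all 7 Ear promoters, Ear14 included, and in no other of the 32817 promoters in the table. In Ear1 it lay just after the annotated start, and in Ear14 near the upstream end of the window. The Ear14 window hence covers mostly other sequence, and its motif matches are not from the same region as those of the others. Searched on both strands, the STAT6 type motif TTCNNNNGAA was in 0 of the 7 Ear promoters and in 6.94% of all promoters. The other STAT type motif TTCNNNGAA was in 1 (Ear14) and in 8.29% of all. The C/EBP type motif was in 5 of 7 (Ear1, Ear2, Ear10, Rnase2a and Rnase2b) and in 10.8% of all, and the TATA box letters TATAAA were in 0 of 7 and in 13.6% of all. The C/EBP type match began at -92 in Ear1, -94 in Ear10, -90 in Ear2 and -118 in Rnase2b, with the same letters. In Rnase2a it was another site, at -217, with other letters. Since the promoters are copies, their matches are not independent, and these counts are not to be weighed against the shares of all promoters. A match is a run of letters and no evidence of binding, and sites outside these windows were not searched.

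Genes of the IL-4 pathway were read from a list. Of 14 receptor and STAT6 pathway genes, 13 had a probe and 12 passed the filter, and 3 rose and 1 fell with IL-4 in each genotype. The risers were the feedback inhibitors Socs1 (2.38 in KO cells and 2.54 in control cells) and Cish (3.25 in KO cells, with no fold given in control cells, since no control vehicle array read it well above background), and the kinase Jak2 (0.58 in KO cells and 0.91 in control cells). The gene that fell was Il13ra1, a receptor chain (-1.06 in KO cells and -0.65 in control cells). With HDAC3 loss, 1 rose and 2 fell under IL-4, where 3.21% of all probes passed, and 3 rose and 2 fell in vehicle, where 4.16% did. Jak3, a kinase of the shared gamma chain receptors, fell by 0.96 under IL-4 (limma adjusted p = 0.00274) and by 0.62 in vehicle (adjusted p = 0.0178). Socs1 fell by 0.89 under IL-4 (adjusted p = 0.0327), and Il2rg, the shared gamma chain, fell by 0.64 in vehicle (adjusted p = 0.00778). The risers in vehicle were Il4ra, Il13ra1 (0.62, adjusted p = 0.0126) and Cish (adjusted p = 0.00136, no fold given). Genes of this list other than its 4 brightest were named after their values were seen. Stat6 averaged 4.14 ± 0.22 on KO IL-4 arrays, 3.83 ± 0.12 on control IL-4 arrays, 4.01 ± 0.08 on KO vehicle arrays and 3.86 ± 0.09 on control vehicle arrays (SD), and passed in no comparison. Il4ra, the ligand-binding receptor chain, was higher in KO cells by 1.19 under IL-4 (limma adjusted p = 0.00414) and by 0.79 in vehicle (adjusted p = 0.0221). Of 22 other alternative activation genes, 19 passed the filter, and 14 rose with IL-4 in KO cells, where 2.01% of all probes passed, and 16 in control cells, where 5.28% did, with median differences of 1.35 in KO cells and 2.31 in control cells. Mrc1, the mannose receptor, differed with IL-4 by 0.88 in KO cells and 1.35 in control cells. HDAC3 loss raised 4 and lowered 2 of the 19 under IL-4, and raised 5 and lowered 2 in vehicle, beside the shares of all probes given above.

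Since the family is named after eosinophils, markers of that and other cell types were read in the same arrays. Of 6 eosinophil markers 5 had a probe, and none rose or fell with IL-4 in either genotype. Their summed intensity was 14170 to 17520 on KO IL-4 arrays and 17640 to 24180 on control IL-4 arrays. It was 12940 to 15120 on KO vehicle arrays and 19750 to 23820 on control vehicle arrays. Ccr3 was the brightest of the 5, with a mean level of 4.83 over all arrays. Prg2, Prg3, Epx and Il5ra were at -1.80, -2.34, -3.33 and -3.62, so that the sums mostly follow Ccr3. The granule genes Prg2, Prg3 and Epx differed with IL-4 by -0.14, -0.15 and -0.11 in KO cells, and by -0.06, -0.05 and 0.52 in control cells. With HDAC3 loss they were at 0.12, -0.05 and 0.02 in vehicle and at 0.04, -0.15 and -0.61 under IL-4, passing in neither. Prg2 was well above background on all 13 arrays. Ccr3, the eotaxin receptor, fell by 0.91 with HDAC3 loss in vehicle (limma adjusted p = 0.000847) and was at -0.37 under IL-4 (adjusted p = 0.161). Siglecf, a lectin of eosinophils that macrophages can also carry, was kept apart from the list for that reason and moved the other way. It was at 3.39, 4.11 and 2.70 on KO IL-4 arrays, against -1.23, -1.88 and -1.32 on control IL-4 arrays. In vehicle it was at 3.86, 4.15 and 2.92 in KO cells, against -2.17, -1.81, -1.62 and -1.28 in control cells. Every KO array lay above every control array. Siglecf rose with HDAC3 loss by 4.88 under IL-4 (limma adjusted p = 0.000111) and by 5.36 in vehicle (adjusted p = 2.07e-05), and its IL-4 difference was -0.24 in KO cells and 0.24 in control cells, past the test in neither. All 7 macrophage markers were detected on all arrays. Their summed intensity was 281400 to 353400 on KO IL-4 arrays, 270300 to 278800 on control IL-4 arrays, 290600 to 297100 on KO vehicle arrays and 248700 to 289400 on control vehicle arrays. These sums weigh the brightest markers, Lyz2 and Adgre1, most. With IL-4, 1 of the 7 fell in KO cells (Fcgr1), where 2.01% of all probes passed. In control cells 3 fell (Fcgr1, Lyz2 and Mertk), where 5.28% passed. HDAC3 loss raised 2 under IL-4 (Itgam and Mertk), where 3.21% passed. In vehicle it raised 2 (Itgam and Csf1r) and lowered 1 (Fcgr1), where 4.16% passed. No neutrophil (7 passing), mast cell and basophil (1), lymphocyte (4) or dendritic cell marker (2) passed in any comparison. The 10 neutrophil markers with a probe summed to 5050 to 12700 on KO IL-4 arrays, 4314 to 9613 on control IL-4 arrays, 4555 to 8181 on KO vehicle arrays and 3849 to 7589 on control vehicle arrays. The 6 mast cell and basophil markers summed to 175.2 to 305.5 on KO IL-4 arrays, 243.6 to 387 on control IL-4 arrays, 217.9 to 294.7 on KO vehicle arrays and 169.9 to 247.6 on control vehicle arrays. Elane and Kit, defining markers of the neutrophil and mast cell lists, were not well above background on any array. The part of any of these cells in the Ear differences was not tested, and in bulk RNA, fewer cells of a type and less RNA per cell cannot be told apart.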

How the data were processed

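The deposited scanner files give each spot's intensity, unlogged and in 1 colour, and name Feature Extraction 10.5.1.1, per the file headers. The submitters' processing notes name version 9.53 and limma. The authors' deposited value table (39280 intensity values per array) served as an alternative.

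Levels are log2 of the background-corrected intensity minus each array's 75th percentile. Control and outlier spots were left out and spots of a probe averaged. The share of spots well above background ran from 56.2% to 83.2%, lowest on control vehicle array 4, and limits the precision of dim probes. Of 41174 probes, 101 had outlier spots and were left out, and 29055 were well above background on every array of a group. A linear model over all 13 arrays (limma 3.58.1, R 4.3.3, two-sided, Benjamini-Hochberg over 29055 probes) gave the tests, and the code was tested on simulated data. No spot was saturated.

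Members, gene lists and comparisons were chosen with earlier results of these data known. Named genes are all family probes, up to 4 per list by mean level, Hdac3, the genes of most and least similar profile, and neighbours. Of these, 1 gene that the rule names is not reported here. Alternatives varied normalization, filter, probe choice, variance model, slide block, weights and arrays. Arrays of lowest detection were left out as an alternative added later.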

Additional observations from a re-analysis of the deposited data

How the results depend on the processing

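The count of family probes that passed between genotypes was 0 under IL-4, in vehicle and for the interaction, in the main setting and in every alternative run (26, 26 and 25 of them). The fit held 5 family probes, except that the filter asking for signal on every array of all groups left 1, Ear11. The normexp background correction with quantile normalization brought the median IL-4 difference to 3.33 in KO cells and 2.40 in control cells, and the cause was not tested. The other 21 alternatives left each median within the spread between arrays. Some of them could not change it, since leaving out arrays of the other genotype, or fitting 1 genotype alone, keeps the same difference of means. At Ear7, which is not a listed name, the normexp setting gave 0.95 for HDAC3 loss under IL-4 (limma adjusted p = 0.0443). That adjusted p ran from 0.0443 to 0.448 over the Ear7 alternatives.

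Small estimates changed sign, and the cause was not tested. In vehicle, Ear10 was at -0.0433 under quantile normalization, -0.0019 under normexp and -0.0093 in the authors' deposited values, and from -0.41 to 0.73 without single arrays. Ear5 in vehicle was at -0.0045 under median scaling, -0.0438 with slide as a fixed block and -0.0661 without the 2 arrays of lowest detection (an alternative chosen after seeing the data), and from -0.35 to 0.50 without single arrays. With array weights, HDAC3 loss under IL-4 was -0.10 at Ear11 and 0.0545 at Ear5, and the Ear1 interaction was -0.23. Without single arrays these ran from -0.10 to 0.28 at Ear11, from -0.43 to 0.0084 at Ear5 and from -0.38 to 0.49 for the Ear1 interaction, and from -0.75 to 0.10 for the Ear5 interaction.

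Over all probes, the number called ran from 79 to 1430 under IL-4 (933 in the main setting, 79 with only IL-4 arrays in the fit, 541 without control IL-4 array 10, 562 without control IL-4 array 12 and 606 without KO IL-4 array 14), 554 to 2286 in vehicle (1208 in the main setting, 554 without KO vehicle array 5 and 573 without KO vehicle array 6) and 1 to 13 for the interaction (1 in the main setting, 13 with trended and robust variance, 4 without KO vehicle array 7). Median scaling gave 551 under IL-4 and 719 in vehicle, no detection filter 586 and 802, array weights 1430 and 2286, and leaving out the 2 arrays of lowest detection 552 and 788. No paired analysis by replicate number was possible because array numbers are not shared between groups. Slides do link the groups: with slide as a block, fixed or random, 0 family probes passed in each of the 3 comparisons.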
